A study of Sus scrofa with 6 samples.

Results

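The genes described here set the tone of the pulmonary vessels through nitric oxide, endothelin, prostanoids and angiotensin. They were taken by name as NOS3, PDE5A, EDN1, ECE1, EDNRA, EDNRB, PTGS1, PTGS2, PTGIS and ACE. Of these 10 genes, 8 had a row among the 14579 mRNAs of the deposited table, and each had 1 row. The pig identifiers held here for EDN1 (ENSSSCG00000035598) and PTGS2 (ENSSSCG00000015579) matched no row, so both genes were not analysed here. The libraries were made from frozen lung tissue, unsorted, of 6 female hybrids of a Tibetan boar and a Meishan sow, 1 library per piglet and 1 piglet per sow. The fetal group of 3 piglets was sampled on the day before birth, with gestation taken as 113 days. The neonatal group of 3 piglets came from other sows and was sampled 2 days after birth. Age, delivery and air breathing differ together between the groups and cannot be told apart.

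Before birth the pulmonary arteries are held constricted and little blood crosses the lung, and with the first breaths their resistance falls. Nitric oxide from endothelial cells raises cGMP in smooth muscle and relaxes it, until phosphodiesterases break the cGMP down. Prostacyclin relaxes the same muscle through cAMP, whereas endothelin-1 and angiotensin II constrict it.

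Values are FPKM, fragments scaled to transcript length and to the number mapped, which allow levels of different genes to be compared. No read counts were given in the tables, so the depth behind single values is unknown here and the spread of 3 piglets is the only error used. Differences are neonatal minus fetal on log2(FPKM + 1), written log2(FC), from limma, and this scale understates changes of genes with low FPKM. A gene was called changed at a Benjamini-Hochberg adjusted p of 0.05 or less over all 14579 mRNAs. By this rule 6.87% of all mRNAs were called, 5.41% as higher and 1.45% as lower in the neonatal group. All mRNAs together had a median log2(FC) of 0.13, or -0.0090 once samples were scaled by median of ratios, so small differences are read against this shift. The FPKM of all mRNAs summed to between 339491 and 471220 in the fetal and between 491548 and 777982 in the neonatal libraries. Summed levels of marker lists are therefore read beside this rise. The median FPKM of a library rose less, from between 4.99 and 5.42 in the fetal to between 5.56 and 6.11 in the neonatal group. The split of calls moved with scaling too, from 789 higher and 212 lower to 650 and 335 after median-of-ratios scaling and 669 and 486 after quantile normalization. The surfactant gene SFTPC, which defines alveolar type II cells, lay between 3171 and 8790 FPKM in all samples. SCGB1A1, a gene of airway club cells, was at 0.213 FPKM in Neonatal2 and between 62.0 and 139 FPKM in the other libraries.

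PTGS1 was the only one of the 8 genes called changed, beside 6.87% of all mRNAs, and it was higher in the neonatal group. ACE, the most abundant of them before birth, had lower values in every neonatal piglet but was not called, and both endothelin receptors had nearly equal means in the groups. The median log2(FC) of the 8 genes was 0.13, the same as over all mRNAs. For 3 genes (PDE5A, ECE1 and PTGS1) all neonatal values lay above all fetal values, and for 1 (ACE) all lay below. Over all mRNAs such separation occurred in 20.9% and 9.64%, together 30.5%.

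**Figure D1:**
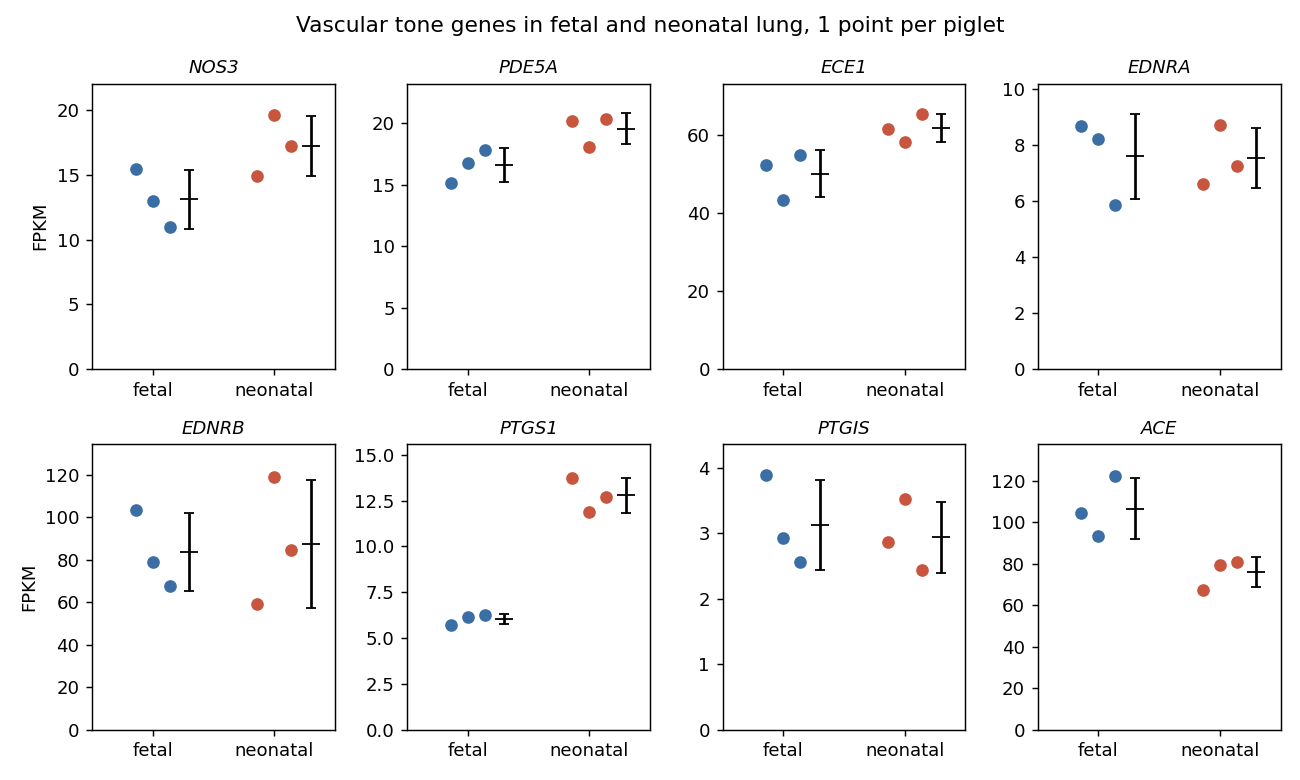
FPKM of 8 vascular tone genes in each piglet (y axes, starting at 0), fetal in blue and neonatal in red, with the mean and SD of 3 piglets in black. PTGS1 shows a wide gap between the groups, ACE, ECE1 and PDE5A are separated by smaller gaps, and the other genes overlap.

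The order of levels was similar in the groups. In the fetal group the means were 107 ± 14.7 FPKM for ACE, 83.4 ± 18.4 for EDNRB, 50.2 ± 6.02 for ECE1, 16.6 ± 1.39 for PDE5A, 13.1 ± 2.28 for NOS3, 7.59 ± 1.51 for EDNRA, 6.04 ± 0.281 for PTGS1 and 3.12 ± 0.689 for PTGIS (SD, n = 3 each). The ranges of ACE and EDNRB overlapped, as did those of PDE5A and NOS3 and those of EDNRA and PTGS1. The other neighbours in this order were separated in the 3 piglets. In the neonatal group EDNRB came first with 87.6 ± 30.1 FPKM and ACE next with 76.1 ± 7.40 (SD, n = 3 each), and their ranges overlapped. PTGS1 at 12.8 ± 0.944 FPKM then stood above EDNRA at 7.53 ± 1.08 (SD, n = 3 each) without overlap. Among all mRNAs by mean FPKM, ACE and EDNRB were at the 95.9th and 95.6th percentile, ECE1 at the 93.6th and PTGIS at the 32.8th.

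Nitric oxide in vessels is made by NOS3, the endothelial synthase. Fetal1, Fetal2 and Fetal3 had 15.5, 13.0 and 10.9 FPKM of NOS3, and Neonatal1, Neonatal2 and Neonatal3 had 15.0, 19.6 and 17.2 FPKM. Fetal1 lay above Neonatal1, so the groups overlapped. Their difference gave a log2(FC) of 0.37 with a 95% interval of -0.08 to 0.83 (adjusted p = 0.289). It was 0.21 after median-of-ratios scaling and 0.17 after quantile normalization. In bulk tissue a change in the number of endothelial cells and a change in RNA per cell cannot be told apart. Of 18 endothelial markers, 13 had a row, and their median log2(FC) was -0.0053. CDH5, a defining marker, had no matched row, and PECAM1, another, had a log2(FC) of 0.05. Of the 13, 7 had a log2(FC) below 0, among them EMCN at -0.74 and TEK at -0.48 (adjusted p = 0.141 and 0.246), and EMCN was called lower after quantile normalization. Only ENG, a co-receptor of TGF-beta in endothelium, was called, at 1.35 (adjusted p = 0.0201). It was not called after quantile normalization, with replicate number as a block or without Fetal1, Fetal2, Fetal3 or Neonatal2. In these fits 0 of the markers were called higher. CLDN5 was called beside ENG without Neonatal1, with the stricter filter and without the variance trend. The summed level of the 13 markers lay between 679 and 826 FPKM in fetal and between 898 and 1157 FPKM in neonatal lungs. CLDN5, a tight junction gene, carried this separation, and without it the sums lay between 481 and 601 FPKM and between 521 and 541 FPKM and overlapped. Summed FPKM of all mRNAs was likewise higher in every neonatal library than in every fetal one. The part of these markers in the values of NOS3 was not tested.

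PDE5A encodes the phosphodiesterase that degrades cGMP in pulmonary artery muscle. Its values were 15.1, 16.8 and 17.9 FPKM in the fetal piglets and 20.2, 18.1 and 20.4 FPKM in the neonatal piglets. The groups did not overlap, with Fetal3 and Neonatal2 only 0.222 FPKM apart. A log2(FC) of 0.23 was obtained (95% interval -0.15 to 0.61, adjusted p = 0.434), and it was 0.06 after median-of-ratios scaling and -0.000417 after quantile normalization. The study's classification places 2 assembled lncRNAs, TU108256 and TU108257, antisense to PDE5A, and the table puts both on the minus strand of chromosome 8 of Sscrofa10.2 (chr8:112070772-112150698). Libraries kept the strand, so such transcripts can be counted apart from PDE5A. TU108256 reached at most 1.44 FPKM before and 0.590 FPKM after birth, and TU108257 at most 0.0525 and 2.18 FPKM. Both groups of each held values near 0 and overlapped, and since both lncRNAs have the same span, reads cannot be surely assigned to either.

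Of 31 other genes of the nitric oxide and cGMP pathway, 25 had a row. A single one of them was called, and it was lower, beside 1.45% of all mRNAs called lower. PDE3B, a phosphodiesterase of cAMP that cGMP inhibits, fell from 31.7, 27.6 and 24.4 FPKM to 12.7, 9.05 and 8.44 FPKM. With a standard error of 0.21 its log2(FC) was -1.40 (adjusted p = 0.0119), and all neonatal values were below all fetal ones. The adjusted p rose to between 0.0554 and 0.0676 without Fetal1, Fetal2, Neonatal2 or Neonatal3. CAV1, which binds and restrains the synthase and marks type I cells too, was the most abundant gene of the list, at 377 ± 22.8 and 307 ± 87.3 FPKM (SD, n = 3 each; adjusted p = 0.510). After quantile normalization CAV1 was called lower, at -0.91 (adjusted p = 0.0232). The subunits of soluble guanylate cyclase, GUCY1A1, GUCY1A2 and GUCY1B1, the receptor of nitric oxide in muscle, had log2(FC) values of 0.31, -0.37 and -0.13 (adjusted p = 0.395, 0.304 and 0.770). PRKG1, the kinase that cGMP activates, stood at 0.35 (adjusted p = 0.306). The median of the list was 0.14 against 0.13 over all mRNAs. Among natriuretic peptides and their receptors, which act through cGMP as well, 4 of 7 genes had a row and none was called by limma. All 4 had an unadjusted p above 0.05, and 24.2% of all mRNAs had one under it. NPR1, the receptor of atrial natriuretic peptide and the gene of this list with the highest level, had 31.4 ± 5.19 and 26.2 ± 5.07 FPKM (SD, n = 3 each; adjusted p = 0.504).

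Endothelin-1 is cut from its precursor by ECE1, a protease of endothelial membranes. ECE1 had 52.3, 43.4 and 54.8 FPKM in the fetal piglets and 61.7, 58.3 and 65.5 FPKM in the neonatal piglets. All neonatal values exceeded all fetal values. For ECE1 the log2(FC) was 0.30 (95% interval -0.12 to 0.72, adjusted p = 0.347), and it became 0.13 after median-of-ratios scaling and -0.02 after quantile normalization.

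EDNRA, the receptor through which endothelin-1 contracts smooth muscle, had 8.70, 8.21 and 5.87 FPKM before and 6.62, 8.73 and 7.25 FPKM after birth. The groups covered nearly the same range, and the highest value of each group was almost equal. This left a log2(FC) of -0.0016, with a 95% interval of -0.49 to 0.48 (adjusted p = 0.997). It was -0.16 after median-of-ratios scaling and -0.17 after quantile normalization. Markers of smooth muscle, where EDNRA is known to act, were looked at beside it. Of 14 smooth muscle and pericyte markers, 12 had a row, and 3 were called, all higher, beside 5.41% of all mRNAs called higher. These were the contractile genes ACTA2, TAGLN and CNN1, with log2(FC) values of 1.74, 1.75 and 2.10 (adjusted p = 0.0138, 0.0317 and 0.0102). Only CNN1 stayed called without Fetal1 or Fetal2 or with replicate number as a block, and ACTA2 and CNN1 did without Fetal3. Without Neonatal2 or without Neonatal3, 0 of the markers were called higher. MYH11, which marks differentiated smooth muscle, was at 0.74 (adjusted p = 0.135). DES and PDGFRB were at 0.12 and 0.23, and RGS5, a pericyte gene, was at -0.76 (adjusted p = 0.855, 0.485 and 0.112). The median log2(FC) of the list was 0.28. Its summed level lay between 451 and 720 FPKM in the fetal and between 1173 and 1902 FPKM in the neonatal group. Without ACTA2 and TAGLN the sums lay between 175 and 296 FPKM and between 281 and 365 FPKM and overlapped. Summed FPKM of all mRNAs was higher in every neonatal library as well. The part of these markers in the values of EDNRA was not tested.

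EDNRB, the receptor that clears endothelin-1 and stimulates nitric oxide release in endothelium, was the more abundant receptor. Its values of 104, 78.8 and 67.7 FPKM in the fetal and 59.0, 119 and 84.8 FPKM in the neonatal piglets gave the widest relative spread of the 8 genes within the neonatal group. Neonatal1 had the lowest and Neonatal2 the highest of all 6 values. EDNRB had a log2(FC) of 0.03, with a 95% interval of -0.67 to 0.74 (adjusted p = 0.953). It turned to -0.14 after median-of-ratios scaling, to -0.31 after quantile normalization and to -0.21 and -0.10 without Neonatal2 or Fetal3. Within a library EDNRB exceeded EDNRA 11.0 ± 1.24 times in the fetal group and 11.4 ± 2.38 times in the neonatal group (SD, n = 3 each). This ratio was 11.9, 9.60 and 11.5 in the fetal and 8.91, 13.6 and 11.7 in the neonatal piglets, so the groups overlapped.

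EDNRB also marks the capillary cells called aerocytes. The list of 6 markers of these cells, which contains EDNRB itself, had 5 genes in the table and none was called by limma. KDR, a receptor of VEGF, alone had an unadjusted p under 0.05, at 0.0449 (adjusted p = 0.195), beside 24.2% of all mRNAs. KDR had a log2(FC) of -0.40, and all its neonatal values lay below all fetal ones. The median log2(FC) of the 5 genes was -0.35, with 3 below 0 and 2, EDNRB among them, above 0. The part of these markers in the values of EDNRB was not tested. Of 10 other genes of the endothelin pathway, 5 had a row and none was called by limma. PLCB4, a phospholipase downstream of such receptors, had the smallest p of these, 0.0415 without adjustment, with 2.92 ± 0.125 FPKM before and 1.69 ± 0.610 FPKM after birth (SD, n = 3 each; adjusted p = 0.188). It alone of the 5 had an unadjusted p under 0.05, beside 24.2% of all mRNAs. EDN3, another endothelin ligand, had 11.1 ± 3.90 and 7.08 ± 2.07 FPKM (SD, n = 3 each; adjusted p = 0.293). GNA11, a G protein subunit, was the most abundant gene of the list at 15.4 ± 3.98 and 19.2 ± 6.30 FPKM (SD, n = 3 each; adjusted p = 0.587).

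**Figure D2:**
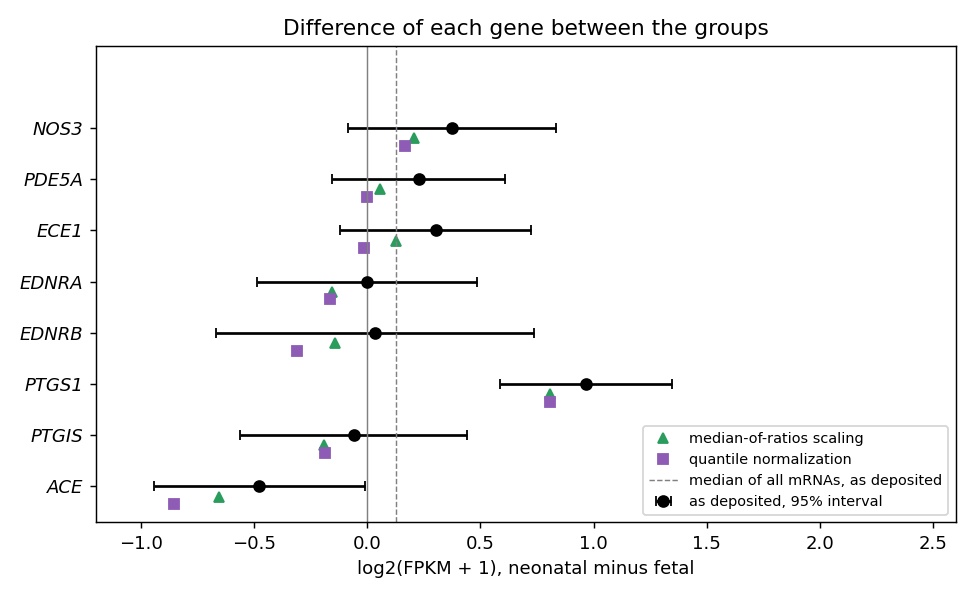
Difference between the groups for each gene on log2(FPKM + 1), neonatal minus fetal (x axis), with the 95% interval of the limma fit in black, the values after median-of-ratios scaling as triangles and after quantile normalization as squares. The interval of PTGS1, from 0.59 to 1.35, lies above the dashed median of all mRNAs, the scaled values of PTGS1 stay near 0.81, and those of ACE move further down.

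The prostanoid genes held the largest difference of the 8 genes. PTGS1, or COX-1, makes the prostaglandin H2 from which prostacyclin, thromboxane and the other prostanoids are formed. Its 3 fetal values, in order of replicate, were 5.73, 6.13 and 6.26 FPKM, and its neonatal values were 13.7, 11.9 and 12.7 FPKM. The fetal values lay within 0.538 FPKM of each other, and the lowest neonatal value was 5.60 FPKM above the highest fetal one. The mean was 2.11 times as high in the neonatal group, which gave 0.97 as log2(FC) (95% interval 0.59 to 1.35, adjusted p = 0.0174) at a standard error of 0.16. Of all mRNAs, 91.5% had a smaller log2(FC). PTGS1 and ACE were the genes of the 8 with an unadjusted p under 0.05, beside 24.2% of all mRNAs. The call held in each of the 6 alternatives of pseudocount, filter, scaling and variance trend, with an adjusted p of at most 0.0360. It held without Neonatal1 (adjusted p = 0.0390). The adjusted p rose to 0.0715, 0.0814 and 0.0546 without Fetal1, Fetal2 or Fetal3 and to 0.0630 and 0.0602 without Neonatal2 or Neonatal3, while the log2(FC) stayed between 0.92 and 1.01.

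PTGS1 is abundant in platelets and present in macrophages. Of 13 platelet and megakaryocyte markers, 5 had a row, and the defining genes ITGA2B, GP9, PF4 and PPBP had no matched row. TREML1 and TUBB1 were called higher, beside 5.41% of all mRNAs, with log2(FC) values of 2.54 and 1.42 (adjusted p = 0.00642 and 0.0217). With 1 library left out both stayed called only without Neonatal1, and otherwise 1 did, TREML1. TREML1 was near the floor before birth, at 0, 0 and 0.635 FPKM. ITGB3, GP1BB and P2RY12 overlapped between the groups, at 0.53, 0.53 and -0.24 (adjusted p = 0.295, 0.665 and 0.778). The summed level of the 5 genes was between 3.79 and 7.73 FPKM in the fetal and between 15.6 and 18.4 FPKM in the neonatal lungs. All 13 macrophage and monocyte markers with a row, of 15 listed, had a log2(FC) above 0. Of them 1, LYZ, was called at 1.96 (adjusted p = 0.00471), beside 5.41% of all mRNAs called higher. CD68, TYROBP and AIF1 had an adjusted p of 0.0506, 0.0506 and 0.0569. They were called beside LYZ after quantile normalization and with the stricter filter. TYROBP was called with it after median-of-ratios scaling, and AIF1 and TYROBP without Neonatal1. With any other library left out only LYZ was called. The summed level of the 13 macrophage and monocyte markers was between 496 and 1104 FPKM in the fetal and between 901 and 2136 FPKM in the neonatal lungs, and the groups overlapped. Both sums are read beside the sum over all mRNAs, which was higher in every neonatal library. The part of platelets and macrophages in the rise of PTGS1 was not tested.

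PTGIS, the synthase that turns prostaglandin H2 into prostacyclin, was the least abundant of the 8 genes, at 3.89, 2.92 and 2.55 FPKM before and 2.86, 3.52 and 2.44 FPKM after birth. The groups overlapped, and Fetal1 held the highest value. For PTGIS the log2(FC) was -0.06 (95% interval -0.56 to 0.44, adjusted p = 0.884), and it was 0.07 without Fetal1 and 0.03 without Neonatal3. Both median-of-ratios scaling and quantile normalization gave -0.19. The ratio of PTGS1 to PTGIS, chosen after the values had been seen, was 1.47, 2.10 and 2.45 in the fetal and 4.80, 3.37 and 5.21 in the neonatal piglets.

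Of 25 other prostanoid genes, 18 had a row, 2 were called and both were receptors that rose, beside 5.41% of all mRNAs called higher. PTGIR, the prostacyclin receptor, had 1.00, 0.770 and 0.717 FPKM in the fetal and 2.06, 2.57 and 3.25 FPKM in the neonatal piglets. All neonatal values were above all fetal values, and Neonatal3 was the highest. PTGIR gave a log2(FC) of 0.98 (adjusted p = 0.0365) at a standard error of 0.21. It stayed called without Neonatal1 (adjusted p = 0.0429) and had an adjusted p between 0.0921 and 0.141 without any of the other 5 libraries. PTGER3, a prostaglandin E2 receptor coupled to inhibition of cAMP, was low before birth at 0.235, 0.375 and 0.137 FPKM and reached 3.92, 2.22 and 3.38 FPKM after birth. The groups did not overlap. Its log2(FC) of 1.72 (adjusted p = 0.00863) stayed past the threshold with any library left out, at an adjusted p of at most 0.0477.

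The enzymes around these receptors gave smaller log2(FC) values, and none of the list was called. TBXAS1, the thromboxane synthase, had a log2(FC) of -0.04 (adjusted p = 0.953), and PTGES, a synthase of prostaglandin E2, had -0.24 (adjusted p = 0.684). PTGES2, another such synthase, had 8.12, 7.65 and 10.7 FPKM before and 12.8, 17.7 and 17.8 FPKM after birth, without overlap. Its log2(FC) was 0.80 (adjusted p = 0.0693). HPGD, which inactivates prostaglandins in the lung and was the most abundant gene of the list, had 34.6 ± 5.15 and 33.1 ± 17.9 FPKM (SD, n = 3 each; adjusted p = 0.791). The median log2(FC) of the 18 genes was 0.11. Beside 2.11 times for PTGS1, the neonatal mean was 0.942 times the fetal mean for PTGIS and 3.16 times for PTGIR.

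**Figure D3:**
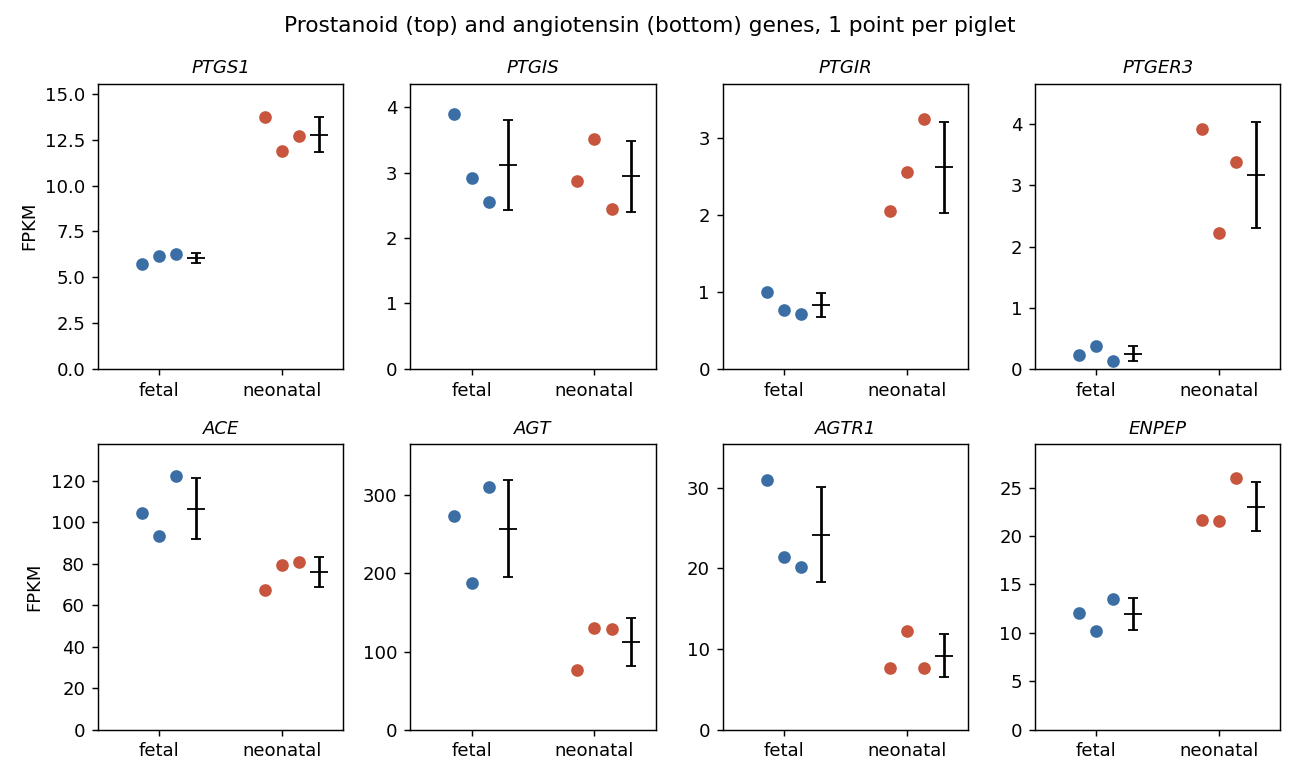
FPKM in each piglet (y axes, starting at 0) of prostanoid genes in the top row and angiotensin genes in the bottom row, with the mean and SD of 3 piglets in black. PTGS1, PTGIR, PTGER3 and ENPEP lie higher and ACE, AGT and AGTR1 lower in all neonatal piglets, and PTGIS overlaps. Of these, ACE, AGT and PTGIS were not past the threshold.

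ACE, which forms angiotensin II and degrades bradykinin on the capillary surface of the lung, had 104, 93.2 and 122 FPKM in the fetal and 67.6, 79.6 and 81.1 FPKM in the neonatal piglets. All neonatal values were below all fetal values, with 12.1 FPKM between the closest. On the log2 scale ACE differed by -0.48 (95% interval -0.94 to -0.01), with a p of 0.0459 before and 0.197 after adjustment. Only 11.0% of all mRNAs had a lower log2(FC). The value grew with scaling, to -0.65 (adjusted p = 0.0622) after median-of-ratios scaling and to -0.85 (adjusted p = 0.0220) after quantile normalization, where ACE was called. With each library left out in turn it lay between -0.57 and -0.38. The endothelial markers given for NOS3 are the setting of ACE as well. Their median log2(FC) was -0.0053, with 6 above and 7 below 0. EMCN, TEK and KDR were at -0.74, -0.48 and -0.40, and ENG was at 1.35. The aerocyte markers given for EDNRB had a median of -0.35, with 2 above and 3 below 0. The part of both lists in the values of ACE was not tested.

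Of 17 other genes of the angiotensin and kinin pathway, 10 had a row, 1 of them called higher and 2 called lower. Over all mRNAs 5.41% were called higher and 1.45% lower. AGTR1, the receptor that carries the constrictor action of angiotensin II, fell from 31.0, 21.5 and 20.2 FPKM to 7.62, 12.2 and 7.64 FPKM. The highest neonatal value was well below the lowest fetal one. AGTR1 differed by -1.31 on the log2 scale (adjusted p = 0.0267). Without Neonatal2 the adjusted p was 0.0488, and without any of the other 5 libraries it was between 0.0659 and 0.104. AGT, the precursor of all angiotensins and the most abundant gene of the list, had 274, 188 and 310 FPKM before and 76.5, 131 and 128 FPKM after birth. All neonatal values were again below the fetal ones, but the log2(FC) of -1.21 did not pass (adjusted p = 0.0634), whereas it was called after median-of-ratios scaling (adjusted p = 0.0261) and quantile normalization (adjusted p = 0.00538).

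ENPEP, the aminopeptidase that breaks angiotensin II down, rose from 12, 10.2 and 13.5 FPKM to 21.6, 21.5 and 26.0 FPKM. All neonatal values exceeded the fetal ones. The log2(FC) of 0.90 (adjusted p = 0.0311) had an adjusted p between 0.0501 and 0.121 when any library was left out. KNG1, the precursor of bradykinin, fell from 4.04, 4.31 and 4.30 FPKM to 1.13, 0.533 and 0.0374 FPKM. The 3 fetal values were nearly equal, and Neonatal3 was close to 0. KNG1 differed by -1.80 on the log2 scale (adjusted p = 0.0140). When any fetal library or Neonatal2 was left out its adjusted p was between 0.0576 and 0.0814, and with a pseudocount of 0.1 it was 0.0504. The median log2(FC) of the 10 genes was -0.33.

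**Figure D4:**
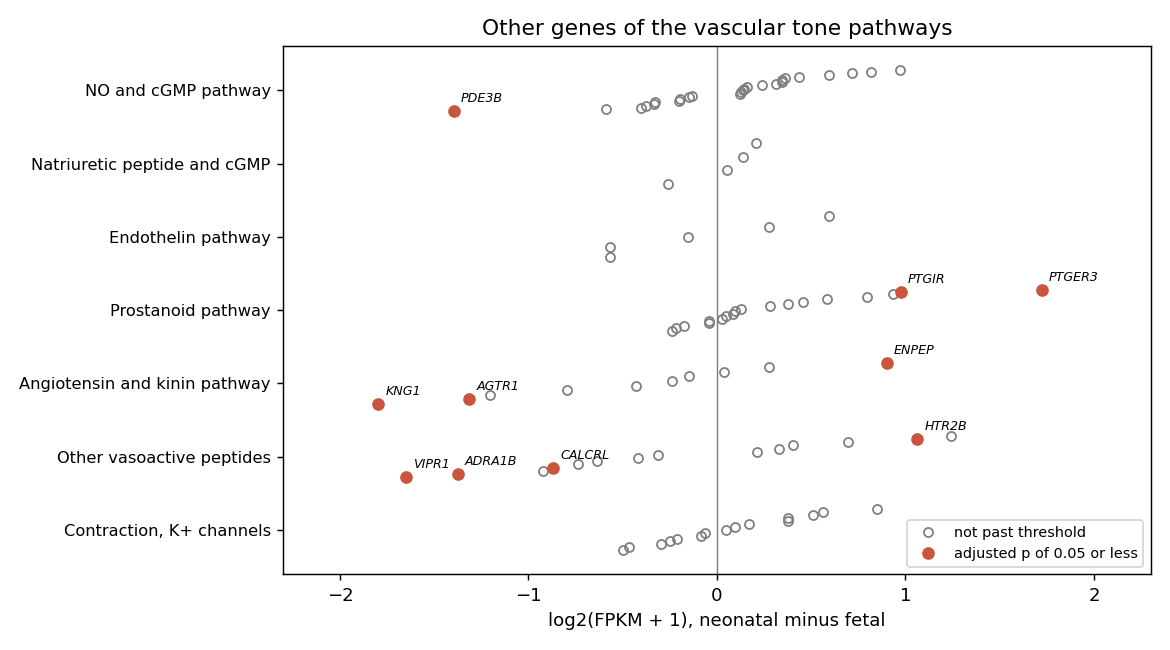
Difference of each of the other pathway genes on log2(FPKM + 1), neonatal minus fetal (x axis), by list (y axis, spread within a list for display), with genes past the threshold filled and named. PTGIR, PTGER3, ENPEP and HTR2B are filled on the right, and PDE3B, AGTR1, KNG1, CALCRL, VIPR1 and ADRA1B on the left.

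Over the 7 pathway lists, 91 of 137 genes had a row and 10 were called, 4 higher and 6 lower, beside 6.87% of all mRNAs. The profile of PTGS1 over the 6 libraries, centred and scaled, was most like that of TMEM132A, FMNL1 and VCAN among 8698 other genes with a symbol and a mean of at least 1 FPKM, with root mean square differences of 0.0790, 0.0822 and 0.0842 SD. TMEM132A had between 6.95 and 7.87 FPKM in the fetal and between 21.0 and 26.0 FPKM in the neonatal piglets (adjusted p = 0.00457). FMNL1, a formin, had between 2.65 and 2.93 FPKM before and between 4.25 and 4.49 FPKM after birth and was not called (log2(FC) 0.49, adjusted p = 0.136). VCAN, a proteoglycan of the provisional matrix, went from between 6.36 and 7.88 FPKM in the fetal piglets to between 19.1 and 27.9 FPKM in the neonatal piglets (adjusted p = 0.00669).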

How the data were processed

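Total RNA of each lung was depleted of ribosomal RNA, and strand-specific libraries were sequenced. The authors mapped the reads to Sscrofa10.2 with TopHat (version 2.1.0) and computed FPKM in Cufflinks (version 2.2.1). The deposited mRNA table holds FPKM for genes above 0.5 in at least 1 sample. Per the labels, lncRNAs were assembled in StringTie (version 1.2.2). All 12 value columns matched a sample by name, and 0 did not. A reference table gave symbols to 9478 mRNAs and the study's list to 349 more, clone names left out. No sequence table was used here.

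Values were analysed as log2(FPKM + 1) in limma (version 3.58.1, run in R 4.3.3), the prior variance following mean level, and adjusted by Benjamini-Hochberg over all mRNAs. Cuffdiff, which the study used, needs reads. At a q value of 0.05 or less the study called more mRNAs than limma did here. A gene not called here may therefore be among the study's calls. The fit was tested on simulated data, where it missed changes of the smallest size put in, so a gene that was not called may still differ. Tables and figures were made in Python 3.11.15. The members and lists were chosen with earlier results of these data known. All members were named, and from each pathway list the called genes, the most abundant gene and that with the smallest p. Genes most like a called member were named by profile, and at most 5 called genes of a marker list could be named beside a member. GUCY1A1, GUCY1A2, GUCY1B1, PRKG1, EDN3, TBXAS1, PTGES, PECAM1, CLDN5, EMCN, TEK, KDR, MYH11, DES, PDGFRB, RGS5, CD68, TYROBP, AIF1, HBB, SFTPC and SCGB1A1, outside this rule, were chosen after their values were seen. So were PTGES2, ITGB3, GP1BB, P2RY12 and ABCC9. Marker lists of proliferating, neutrophil, mast, erythroid and alveolar cells were fixed as well. Of these, 10 of 10 proliferation and 4 of 8 neutrophil markers with a row were called higher, beside 5.41% of all mRNAs. With values as deposited, 0 of 3 mast, 0 of 7 erythroid, 0 of 9 type II and 0 of 6 type I cell markers were called by limma. After quantile normalization HBB of the erythroid list and CAV1 of the type I list were called lower. The study, with Cuffdiff, reported HBB as higher in fetal lungs. Of these lists with 0 calls as deposited, 1 mast, 1 erythroid, 1 type II and 0 type I cell markers had an unadjusted p under 0.05, beside 24.2% of all mRNAs. Alternatives were pseudocounts of 0.5 and 0.1, a filter requiring FPKM above 1 in 3 or more samples, quantile normalization, scaling by median of ratios, no trend, a replicate block, and each sample left out. Marker sums without CLDN5 or without ACTA2 and TAGLN were added after the values were seen.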

Additional observations from a re-analysis of the deposited data

How the results depend on the processing

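With 3 piglets per group and no read counts, the intervals of NOS3, ECE1 and PDE5A included 0, so their differences cannot be told from 0. Quantile normalization turned PDE5A to -0.000417, ECE1 to -0.0153, EDNRB to -0.31 and RAMP2 to -0.22 and called ACE at -0.85, so that 1 vascular tone gene was called lower. Median-of-ratios scaling turned EDNRB to -0.14. Under quantile normalization 2 genes of the nitric oxide list, 4 of the angiotensin list and 1 of the contraction list were called lower, and 1 of the contraction list after median-of-ratios scaling. With a pseudocount of 0.1 the angiotensin list had 1 gene called lower, and with the stricter filter the list of other vasoactive genes had 0 called higher, since HTR2B was then not tested. For the other changes the cause was not tested. The planned ratio of PTGS1 to PTGS2 was not run, since PTGS2 had no matched row. Replicate numbers name piglets of different sows, and same-numbered samples did not deviate together (correlations of their deviations of -0.0407, -0.0043 and 0.000466), nor did each sample correlate best with its own number. With the replicate block the number of called mRNAs went from 1001 to 401. PTGS1 kept its log2(FC) of 0.97 at an adjusted p of 0.0798, leaving 0 of the 8 genes called. The block left 1 prostanoid gene called higher, 0 angiotensin genes higher and 1 lower, and 0 other vasoactive genes higher and 1 lower. With each library left out in turn, the number of called mRNAs lay between 196 and 944. The log2(FC) lay between 0.92 and 1.01 for PTGS1, -0.16 and 0.0939 for EDNRA, -0.21 and 0.29 for EDNRB, -0.16 and 0.0691 for PTGIS, -0.57 and 0.11 for HPGD, and -0.0048 and 0.58 for RHOA. In the same fits between 0 and 1 of the 8 genes was called higher, as were between 0 and 1 nitric oxide, between 1 and 2 prostanoid, 0 angiotensin and between 0 and 1 other vasoactive genes. Between 0 and 1 gene each of the nitric oxide, angiotensin and other vasoactive lists was called lower. Over all alternatives, direction and call of the 8 genes stayed the same in 50 of 56 fits with all samples and 35 of 48 fits with 1 library left out.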

Other observations

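Among 27 other vasoactive peptides and receptors, 14 had a row, 1 was called higher and 3 lower, beside 5.41% and 1.45% of all mRNAs. CALCRL, the receptor of adrenomedullin and CGRP, peptides that dilate vessels, fell from 219, 207 and 240 FPKM to 121, 110 and 133 FPKM, with no overlap (log2(FC) -0.87, adjusted p = 0.0491). Its partner RAMP2, the most abundant gene of the list, had 324, 272 and 356 FPKM before and 390, 396 and 471 FPKM after birth (log2(FC) 0.40, adjusted p = 0.369), which turned to -0.22 after quantile normalization. VIPR1, a receptor of vasoactive intestinal peptide, fell from 4.36, 4.28 and 4.20 FPKM to 0.544, 1.60 and 0.185 FPKM (log2(FC) -1.65, adjusted p = 0.0223). ADRA1B, an adrenergic receptor that constricts arteries, fell from 4.26, 3.56 and 3.33 FPKM to 0.712, 0.565 and 1.22 FPKM (log2(FC) -1.37, adjusted p = 0.0140). HTR2B, a serotonin receptor, was at most 0.121 FPKM in the fetal group and lay between 0.754 and 1.49 FPKM in the neonatal group (log2(FC) 1.06, adjusted p = 0.0347). With a library left out, the adjusted p passed 0.05 for CALCRL without any of the 6 (0.0590 to 0.161), for VIPR1 without any but Neonatal2 (0.0616 to 0.108), for HTR2B without any but Neonatal1 (0.0847 to 0.105) and for ADRA1B without Fetal1, Fetal2 or Neonatal2 (0.0635 to 0.0713).

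Of 20 genes of arterial contraction and potassium channels, 15 had a row and none was called by limma. Of the 15, 3 had an unadjusted p under 0.05, beside 24.2% of all mRNAs. KCNJ8, a subunit of the ATP-sensitive potassium channel, had 22.0, 12.1 and 19.2 FPKM before and 25.6, 30.1 and 41.7 FPKM after birth, without overlap (log2(FC) 0.85, adjusted p = 0.118). ABCC9, another subunit of this channel, went the other way, from 34.1, 29.0 and 26.6 FPKM to 19.7, 20.6 and 22.2 FPKM. Its groups did not overlap either (log2(FC) -0.50, adjusted p = 0.137). RHOA, a small GTPase that promotes contraction and the most abundant gene of the list, had 92.0 FPKM in Neonatal1 and between 38.2 and 42.8 FPKM in the other libraries.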
